A study of Mus musculus
Rattus norvegicus and Mus musculus with 6 samples.

Results

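The genes described here encode proteins of the extracellular matrix and the proteases that cut matrix and cell surface proteins. They were chosen by symbol and comprised the collagens, laminins, perlecan, fibronectin, versican, decorin, fibulins, thrombospondins other than Thbs1, periostin, emilins, lysyl oxidases, matrix metalloproteinases (Mmp) and the Adam and Adamts families. The set held 92 probes of 79 genes, of 46628 probes on the array. Of these, 89 probes of 77 genes took their name from the gene ID in the probe name. The other 3 probes, for Fn1, Col4a2 and Vcan, were added because the study lists these genes as upregulated, so their differences are given as a description, without a test. Mmp2, Mmp8, Mmp9, Mmp14, Sparc, Bgn, Lox and Tnc were not analysed here.

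The study asked how contact with cardiac myocytes changes gene expression of hematopoietic stem cells (SC). Lin-/c-kit+ SC, which are bone marrow cells depleted of mature blood lineages and enriched for the receptor c-kit, came from tibia and femur of C57Bl/6 mice that the labels call male. For coculture, SC were added to neonatal rat ventricular cardiac myocytes (NRVCM) of Wistar rats, labelled female, and were separated from them by FACS after 48 h. Control SC spent the same 48 h in monoculture without NRVCM and were sorted in the same way. More SC were seeded per well than in coculture, where most cells were NRVCM, so SC density cannot be told apart from coculture. RNA of 3 coculture and 3 monoculture experiments was hybridized to mouse bead arrays. Neither group carried a genetic change or an added agent apart from a fluorescent label of the SC. The labels number the experiments but do not say whether mice were pooled.

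The matrix is a network of collagen fibrils, basement membrane sheets and adhesive glycoproteins that cells secrete and bind through integrins. Metalloproteinases degrade its components, Adam proteases mostly cut membrane proteins and release their outer part, and Adamts proteases are secreted and cut procollagens and proteoglycans. In the heart, fibroblasts are known as the main source of fibrillar collagen, whereas macrophages contribute proteases.

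Signals are given on the log2 scale, and a difference is coculture minus monoculture on that scale. A signal counted as above background when it exceeded the brightest of 27 reporter and vector control probes on the same array, a limit of 6.57 to 6.71. A probe counted as higher or lower when limma's adjusted p, taken over all 46628 probes, was under 0.05 and the difference exceeded 1.5-fold (0.58). On that basis 806 of all probes were higher in coculture (1.73%) and 898 were lower (1.93%). Signals of different probes cannot be set against each other as amounts of RNA.

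The arrays did not all match the label of male mice. The Y-linked Eif2s3y had signals of 6.33, 8.93 and 6.23 in coculture replicates 1, 2 and 3, against 6.33, 6.32 and 6.30 in monoculture replicates 1, 2 and 3. It was thus above background on coculture replicate 2 alone, as was the Y-linked Kdm5d. Ddx3y and Uty, also Y-linked, were at background on all 6 arrays, coculture replicate 2 included. Xist, which is transcribed from the inactive X chromosome of females, was 8.72, 6.84 and 8.80 in coculture, against 8.62, 8.77 and 8.21 in monoculture. A second Xist probe was at background on all 6 arrays. Counts and main values are therefore also given without coculture replicate 2. Of the progenitor and granule markers, Mpo had signals of 14.51, 14.66 and 14.58 in coculture, against 14.46, 14.28 and 14.66 in monoculture, and its difference of 0.12 did not pass (limma, adjusted p = 0.665). Elane, the neutrophil elastase gene, was higher at 14.47, 14.70 and 14.65 in coculture, against 13.95, 14.01 and 14.08 in monoculture (difference 0.59; limma, adjusted p = 0.00797). Hlf was at background on all 6 arrays. The summed linear signal of the 4 named genes of this list was 46257 to 52739 in coculture and 36597 to 43434 in monoculture. Kit and Cd34 were not analysed here.

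Most of the matrix and protease genes gave no signal above background in either group. Of the 89 probes named by gene ID, 60 (67.4%) were at background on all 6 arrays, against 21605 (46.3%) of all probes and 3744 (38.2%) of those named by gene ID. Above background on at least 1 array were 29 (32.6%), of which 23 were above on all arrays of a group, and 7 probes (7.87%) were above on all 6 arrays, against 33.0% of all probes. With a limit 0.5 higher, the 29 probes became 12. The 7 probes above the limit on all 6 arrays were Col5a1, Emilin2, Lamb2, Adam17, Adam30, Mmp12 and Mmp19. With the higher limit these became 4, without Col5a1, Lamb2 and Adam30. No probe of 49 of the 77 genes exceeded the limit. A probe at background does not show that a transcript was missing, since probes for the adhesion receptors Cd44 and Itga4, which hematopoietic cells are known to carry, were at background on all 6 arrays as well.

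Between the groups, 1 probe of the 89 was higher in coculture (Col5a1, 1.12%) and 1 was lower (Adam19, 1.12%), against the 1.73% and 1.93% of all probes. A further probe, Col15a1, had an adjusted p under 0.05 but differed by less than 1.5-fold, so that 1 probe was higher and 2 were lower by the adjusted p alone, against 3.25% higher and 3.22% lower of all probes. At an unadjusted p under 0.05 there were 19 probes (21.3%), against 18.3% of all probes and 24.0% of the 9796 probes named by gene ID. The differences of the 89 probes ran between -1.36 and 1.31 with a median of 0.00, and the median over all probes was -0.00. All 3 coculture arrays were above all 3 monoculture arrays for 13 probes (14.6%) and below them for 12 (13.5%), against 11.6% of all probes in each direction. Among the probes named by gene ID, 14.5% lay above and 12.4% below, and 2.72% were called higher and 2.49% lower. Without coculture replicate 2, the counts were again 1 higher and 1 lower.

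**Figure D1:**
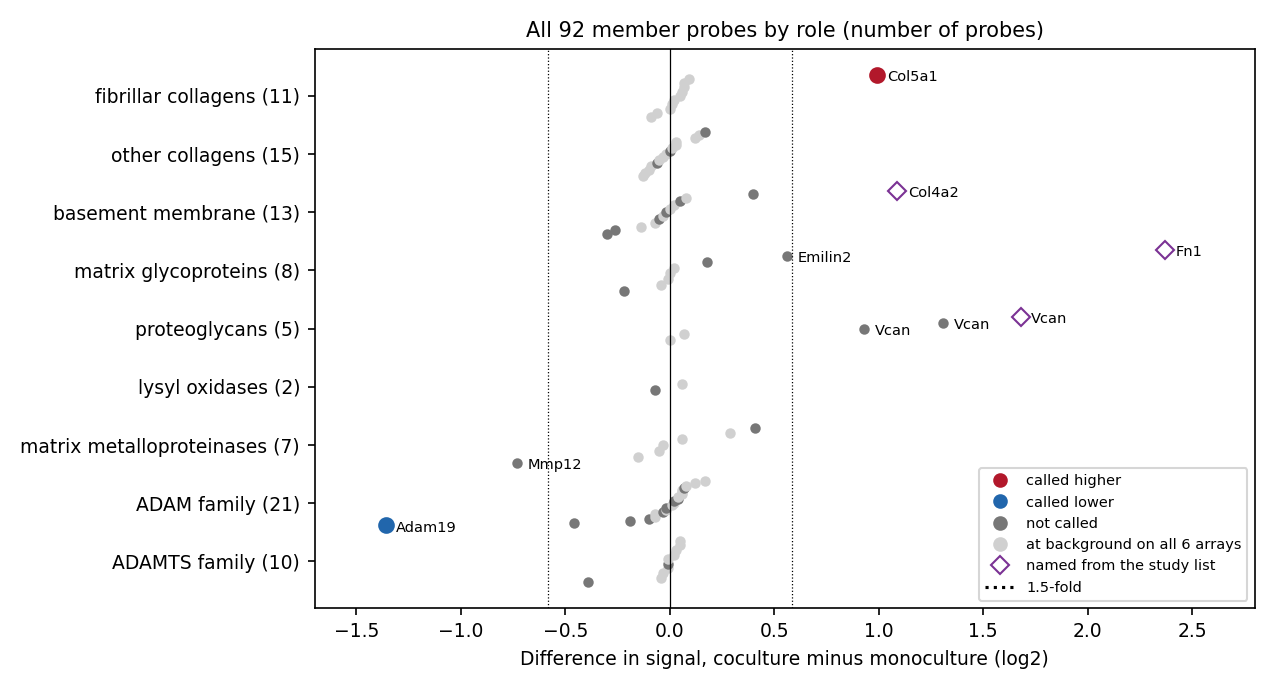
Difference in signal between coculture and monoculture (log2, horizontal axis) for each of the 92 probes, grouped by role, with the number of probes in parentheses, dotted lines at 1.5-fold and pale points for probes at background on all 6 arrays. Col5a1 stands right of the 1.5-fold line at 0.99 and Adam19 left of it at -1.36, while open diamonds mark the 3 probes named from the study's list, whose place on the right was fixed by that choice.

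Among the fibrillar collagens, which form the tensile fibres of connective tissue, Col5a1 alone was above background. Col5a1 encodes a chain of type V collagen, which helps to initiate and limit the growth of type I collagen fibrils. Its signals were 7.88, 8.21 and 8.14 in coculture, against 7.08, 7.01 and 7.18 in monoculture. The lowest coculture array was thus above the highest monoculture array, and all 6 arrays were above background. With a limit 0.5 higher, only the 3 coculture arrays exceeded it, so the monoculture signals lay close to background. The means of 8.08 ± 0.18 in coculture and 7.09 ± 0.09 in monoculture (SD, n = 3 each) differed by 0.99 (SE 0.10, 95% confidence interval 0.75 to 1.22), a 1.98-fold higher signal (limma, adjusted p = 0.00441). Without coculture replicate 2, the difference was 0.92 (limma, adjusted p = 0.00946). In 11 other settings of the fit, the adjusted p ran between 0.00125 and 0.0245.

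The other 10 fibrillar collagen probes, for 8 genes, were at background on all 6 arrays. They included the chains of type I collagen (Col1a1 and Col1a2), of type III (Col3a1) and of cartilage type II (Col2a1, on both probes). Their differences were -0.09 for Col1a1, 0.05 for Col1a2 and 0.06 for Col3a1, with all signals under the limit. Col5a2, which encodes the partner chain of Col5a1 in type V collagen, was at background too and differed by -0.06. Of the cardiac fibroblast markers, 8 of 16 genes were named, and 5 of them (Col1a1, Col1a2, Col3a1, Dcn and Postn) were at background on all 6 arrays. The summed linear signal of the 8 genes was 3639 to 4750 in coculture and 4067 to 5173 in monoculture, and most of it came from S100a4, which leukocytes also express. Of the cardiac myocyte markers, Myh6, Myh7 and Ryr2 did not exceed background on any array, whereas Atp2a2, which many cell types express, and Mybpc3 were above it on all 6. Mybpc3, a sarcomere protein, had signals of 6.87, 6.98 and 7.20 in coculture, against 6.81, 6.84 and 6.79 in monoculture. Its groups did not overlap, and the difference of 0.21 did not pass (limma, adjusted p = 0.262). The summed linear signal of the 6 named myocyte genes was 654 to 667 in coculture and 620 to 646 in monoculture. The part of these markers in the values of the matrix genes was not tested. These are mouse probes, and how well they would bind rat RNA was not tested.

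The enzymes and chaperones that modify and fold collagen chains were present on 10 probes of 8 genes, out of 22 genes listed. None of these probes was called in either direction, against 1.73% higher and 1.93% lower of all probes. Their median difference was -0.01. P3h1, a prolyl hydroxylase of collagen, had signals of 7.60, 7.57 and 8.12 in coculture, against 7.22, 7.07 and 7.33 in monoculture. Its groups did not overlap, but the difference of 0.55 did not pass (limma, adjusted p = 0.111). Serpinh1, the collagen chaperone, differed by -0.02 and Bmp1, which trims procollagen, by -0.02. Loxl2, one of the oxidases that cross-link collagen, was close to the limit in both groups (difference -0.07), and Loxl1 was at background.

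Versican and fibronectin had higher mean signals in coculture on each of their 4 probes, with a wide spread between arrays. For the Fn1 probe and the first Vcan probe, this direction was fixed by their choice from the study's list. Neither of the 2 Vcan probes named by gene ID passed the test. They measure a gene of the study's list on the same arrays, so their direction is not independent of that list. Vcan encodes a large chondroitin sulfate proteoglycan of loose, provisional matrix and was covered by 3 probes. The first, named from the study's list, had signals of 8.91, 8.71 and 7.66 in coculture, against 6.51, 6.67 and 7.05 in monoculture, a difference of 1.68. The second, named by gene ID, had 8.59, 8.67 and 7.41 in coculture, against 6.52, 6.75 and 7.47 in monoculture. On this probe the groups overlapped, because coculture replicate 3 lay below monoculture replicate 3. Its means were 8.22 ± 0.71 in coculture and 6.92 ± 0.50 in monoculture (SD, n = 3 each), and the difference of 1.31 (SE 0.40, 95% confidence interval 0.36 to 2.26) did not pass (limma, adjusted p = 0.132).

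The third Vcan probe, also named by gene ID, had signals of 7.70, 7.94 and 7.09 in coculture, against 6.53, 6.56 and 6.85 in monoculture. Its groups did not overlap, and only monoculture replicate 3 was above background among the monoculture arrays. The difference of 0.93 (SE 0.22, 95% confidence interval 0.41 to 1.46) did not reach the threshold (limma, adjusted p = 0.0621). Without coculture replicate 3, the second probe differed by 1.71 (limma, adjusted p = 0.0345) and the third by 1.18 (limma, adjusted p = 0.0117), so both then passed. Without coculture replicate 2, neither passed, with differences of 1.08 (limma, adjusted p = 0.27) and 0.75 (limma, adjusted p = 0.11). On all 3 probes, coculture replicate 3 was the lowest coculture array and monoculture replicate 3 the highest monoculture array. The probes measure the same gene and are not independent samples of it.

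Fn1 encodes fibronectin, the adhesive glycoprotein that links collagen to integrins. The study also reported fibronectin as significantly higher in coculture by real-time PCR. The probe from the study's list had signals of 9.49, 10.10 and 9.12 in coculture, against 6.65, 7.07 and 7.89 in monoculture. The means were 9.57 ± 0.50 in coculture and 7.20 ± 0.63 in monoculture (SD, n = 3 each), a difference of 2.37 or 5.16-fold, and the groups did not overlap. As for Vcan, coculture replicate 3 was the lowest coculture array and monoculture replicate 3 the highest monoculture array, and leaving out single arrays moved the difference between 2.09 and 2.71. The difference was 2.10 without coculture replicate 2. Dcn, a small proteoglycan that binds collagen fibrils, was at background on both of its probes.

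**Figure D2:**
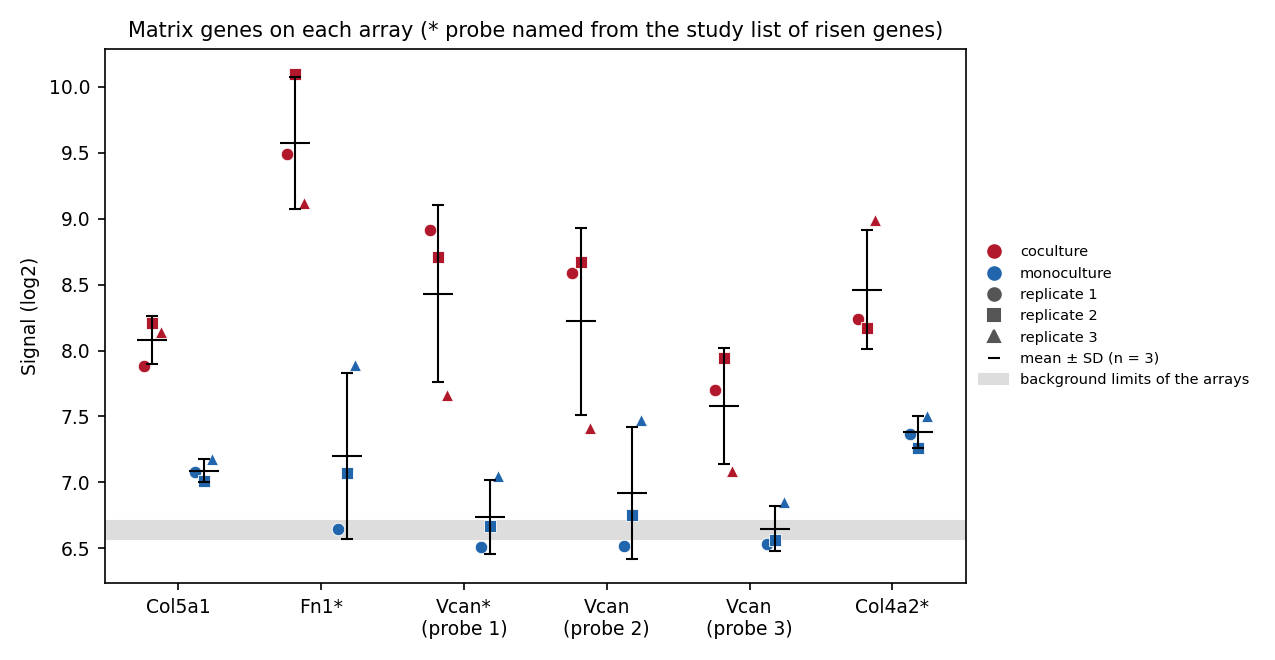
Signal (log2, vertical axis) of 6 probes of matrix genes on each array, coculture in red and monoculture in blue, with symbols for the replicate number, bars for mean ± SD (n = 3) and a grey band for the background limits of the arrays. The Col5a1 arrays lie close together within each group (SD 0.18 in coculture and 0.09 in monoculture), whereas for Fn1 and the 3 Vcan probes coculture replicate 3 and monoculture replicate 3 lie nearest to the other group.

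The other matrix glycoproteins gave smaller differences. Emilin2, a glycoprotein of elastic fibres, had signals of 11.40, 11.88 and 11.67 in coculture, against 11.03, 10.85 and 11.40 in monoculture. The lowest coculture array and the highest monoculture array were thus nearly equal. The means of 11.65 ± 0.24 in coculture and 11.09 ± 0.28 in monoculture (SD, n = 3 each) differed by 0.56 (SE 0.17, 95% confidence interval 0.15 to 0.97), which did not pass (limma, adjusted p = 0.137). Thbs2, a matricellular thrombospondin, was at background on the coculture arrays at 6.50, 6.51 and 6.44, against 6.71, 6.61 and 6.81 in monoculture. The difference of -0.22 did not pass (limma, adjusted p = 0.0993). With the background limit standing in for coculture, its signal was 1.04-fold lower there, a value that rests on the chosen limit. Fbln1, a fibulin of elastic fibres and basement membranes, had signals of 6.58, 6.76 and 6.80 in coculture on 1 probe, against 6.59, 6.48 and 6.53 in monoculture. The coculture values were just above the limits of their arrays, but the groups overlapped, as coculture replicate 1 lay below monoculture replicate 1. The difference of 0.18 did not pass (limma, adjusted p = 0.221). The other Fbln1 probe, as well as Fbln2, Postn and Emilin3, were at background on all 6 arrays.

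Basement membrane genes, which encode the laminin and type IV collagen sheets under epithelia and around vessels, did not move in a single direction. Of their 12 probes named by gene ID, 6 never exceeded background, including those for Lamb1, the perlecan gene Hspg2, and Col4a3, Col4a5 and Col4a6. Lamb2, a laminin beta chain, had signals of 7.30, 7.44 and 7.74 in coculture, against 7.09, 6.98 and 7.21 in monoculture. The groups did not overlap, but the difference of 0.40 (SE 0.12, 95% confidence interval 0.10 to 0.69) did not pass (limma, adjusted p = 0.137). Col4a2, a chain of type IV collagen whose probe came from the study's list, had 8.24, 8.17 and 8.99 in coculture, against 7.37, 7.26 and 7.50 in monoculture, a difference of 1.09 or 2.12-fold. Here coculture replicate 3 was the highest array, unlike for Fn1 and Vcan. The difference was 1.23 without coculture replicate 2.

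The basement membrane genes Col15a1 and Lama5 were at background in coculture and slightly above it in monoculture. With a limit 0.5 higher, neither exceeded it on any array, so this contrast and the fold bounds given here rest on the chosen limit. Col15a1, a collagen of the basement membrane zone, had signals of 6.44, 6.48 and 6.50 in coculture, against 6.65, 6.73 and 6.80 in monoculture. The groups did not overlap and the difference was -0.26 (SE 0.05), at least 1.05-fold lower (limma, adjusted p = 0.0399). It lost its adjusted p under 0.05 whenever any single array was left out (limma, adjusted p 0.0557 to 0.13, 0.0868 of them without coculture replicate 2). Lama5, a laminin alpha chain, had 6.45, 6.53 and 6.54 in coculture, against 6.97, 6.63 and 6.84 in monoculture. It was at least 1.11-fold lower (difference -0.30), which did not pass (limma, adjusted p = 0.125).

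The remaining collagens, which comprise fibril-associated, network-forming, beaded-filament and transmembrane types, were on 15 probes of 13 genes. Of these probes, 12 never exceeded background, including those for Col6a1 and Col6a3 of the beaded filaments. No call was made in either direction, against 1.73% higher and 1.93% lower of all probes. Col7a1, the collagen of the anchoring fibrils of skin, had signals of 6.87, 6.93 and 6.82 in coculture, against 6.75, 6.69 and 6.68 in monoculture. The groups did not overlap, and the difference of 0.17 did not pass (limma, adjusted p = 0.114), while the second Col7a1 probe was at background and differed by -0.12. Differences in this class stayed between -0.13 and 0.17.

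Of the Adam family, Adam19 was lower in coculture and Adam17 showed a smaller difference in the same direction. Adam19 is a membrane-bound protease known to cut neuregulins and other growth factor precursors. Its signals were 6.50, 6.81 and 7.07 in coculture, against 7.87, 8.35 and 8.25 in monoculture. The highest coculture array was below the lowest monoculture array, and coculture replicate 1 was at background. The means of 6.79 ± 0.29 in coculture and 8.16 ± 0.26 in monoculture (SD, n = 3 each) differed by -1.36 (SE 0.18, 95% confidence interval -1.79 to -0.93), a 2.57-fold lower signal (limma, adjusted p = 0.0104). Without coculture replicate 2, the difference was -1.37 (limma, adjusted p = 0.0261). In 11 other settings of the fit, the adjusted p ran between 0.00179 and 0.0342.

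Adam17, the enzyme that releases tumor necrosis factor from the cell surface, had signals of 10.33, 10.42 and 10.03 in coculture, against 10.54, 10.55 and 11.09 in monoculture. The groups did not overlap, although coculture replicate 2 was close to monoculture replicates 1 and 2. The means of 10.26 ± 0.21 in coculture and 10.73 ± 0.32 in monoculture (SD, n = 3 each) differed by -0.46 (SE 0.18, 95% confidence interval -0.89 to -0.04), which did not pass (limma, adjusted p = 0.227). Adam30 had 7.18, 7.21 and 7.15 in coculture, against 7.08, 7.14 and 7.09 in monoculture. Its 6 arrays were close together and the difference of 0.07 did not pass (limma, adjusted p = 0.468). Adam11, a family member without protease activity, had 6.60, 6.85 and 6.85 in coculture, against 7.12, 7.07 and 6.68 in monoculture, with overlapping groups (difference -0.19, limma, adjusted p = 0.569). Of the 21 Adam probes, 12 never exceeded background, including that of Adam10, the closest relative of Adam17 and a sheddase of Notch receptors.

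The Adamts family was mostly at background. Of its 10 probes, 8 were at background throughout, including Adamts1, Adamts4 and Adamts5, which cut versican and related proteoglycans, and Adamts2, which trims procollagen. Adamts8 was at the limit. Adamtsl5, a family member without a protease domain, had signals of 6.95, 6.77 and 6.54 in coculture, against 7.27, 6.86 and 7.32 in monoculture. The groups overlapped, and the difference of -0.39 (SE 0.15) did not pass (limma, adjusted p = 0.238).

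Matrix metalloproteinases were measured on 7 probes of 7 genes, and Mmp12 and Mmp19 alone were above background. Mmp12, the elastase of macrophages, had signals of 7.83, 8.10 and 7.34 in coculture, against 8.17, 8.78 and 8.51 in monoculture. All coculture arrays were below all monoculture arrays. The means of 7.76 ± 0.39 in coculture and 8.48 ± 0.31 in monoculture (SD, n = 3 each) differed by -0.73 (SE 0.23, 95% confidence interval -1.28 to -0.18), which did not pass (limma, adjusted p = 0.145). Mmp19, a secreted metalloproteinase of broad specificity, had 7.70, 7.92 and 7.60 in coculture, against 7.15, 7.21 and 7.61 in monoculture. Monoculture replicate 3 reached the level of the coculture arrays, so the groups overlapped. The difference was 0.41 (SE 0.14, 95% confidence interval 0.08 to 0.75; limma, adjusted p = 0.173) and 0.56 without monoculture replicate 3, where the adjusted p was 0.0429 but the change stayed under 1.5-fold. Mmp1a, Mmp16, Mmp17, Mmp24 and Mmp28 were at background on all 6 arrays.

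**Figure D3:**
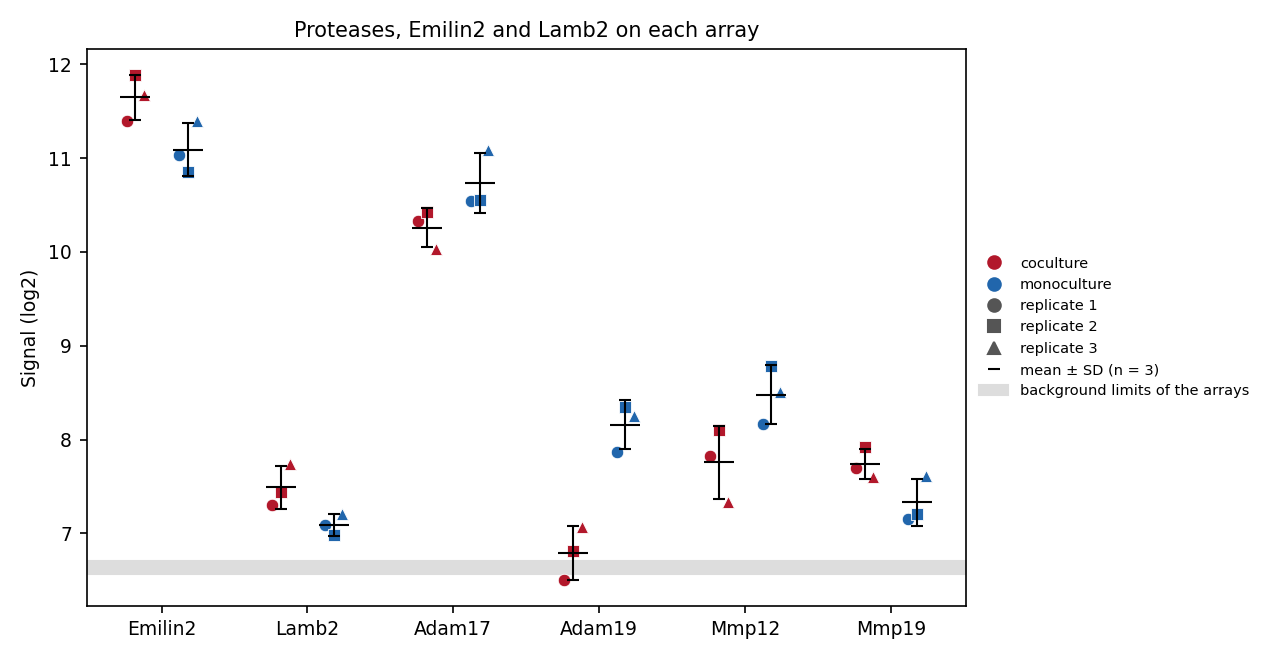
Signal (log2, vertical axis) of Emilin2, Lamb2 and 4 proteases on each array, coculture in red and monoculture in blue, with symbols for the replicate number, bars for mean ± SD (n = 3) and a grey band for the background limits. Adam19 has the widest gap between groups (difference -1.36), with coculture near background, whereas for Mmp19 monoculture replicate 3 (7.61) lies among the coculture arrays.

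Some macrophage markers were lower in coculture, as was Adam19, while the difference of Mmp12 did not pass. Of 15 monocyte and macrophage markers, 8 genes were named on 10 probes. There were 4 lower calls (Cd68, Mertk and both probes of Gpnmb) and none higher, against 1.93% lower and 1.73% higher of all probes. The other 6 probes, for Lyz2, Msr1, Apoe, Csf1r and Itgam, did not pass. The summed linear signal of the 8 genes was 23992 to 31135 in coculture and 58506 to 63844 in monoculture, with Msr1 at background on all 6 arrays. A few bright genes carried this sum. The brighter Gpnmb probe had a mean of 9.69 in coculture and 14.32 in monoculture, whereas the brighter Lyz2 probe had 14.47 and 14.60. Cd68 had signals of 10.96, 11.30 and 10.19 in coculture, against 12.94, 12.85 and 12.82 in monoculture. Its lowest array was coculture replicate 3, as for Mmp12 and Adam17, whereas for Adam19 replicate 3 was the highest coculture array and replicate 1 the lowest. The part of these markers in the values of the proteases was not tested, and in RNA pooled from all sorted cells of a culture, fewer cells of a type cannot be told apart from less RNA per cell.

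The protease inhibitors were represented by Timp2, Timp3 and Reck, which were 3 of 12 listed genes, on 4 probes. No probe was called, against 1.73% higher and 1.93% lower of all probes. Timp3, which inhibits Adam17 and metalloproteinases, had signals of 7.50, 7.69 and 8.13 on 1 of its 2 probes in coculture, against 10.30, 9.65 and 8.72 in monoculture. The groups did not overlap, and the difference of -1.79 (SE 0.39) missed the threshold narrowly (limma, adjusted p = 0.0501). Timp2, another metalloproteinase inhibitor, differed by -1.37 (SE 0.37), which did not pass (limma, adjusted p = 0.0938). Reck, a membrane-anchored inhibitor, differed by -0.07. Timp1 was not analysed here. The study lists a metalloproteinase inhibitor, given as TIMP, as upregulated on the arrays, which its real-time PCR did not show as significant.

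Of the receptors by which cells bind matrix, 14 of 31 listed genes were named on 17 probes. They gave 1 lower call and none higher, against 1.93% lower and 1.73% higher of all probes. Itga2b, the integrin alpha chain of platelets and megakaryocytes that binds fibrinogen and fibronectin, had signals of 7.02, 7.77 and 7.97 in coculture, against 10.27, 9.57 and 9.29 in monoculture. All coculture arrays were below all monoculture arrays, with a difference of -2.12 (SE 0.33; limma, adjusted p = 0.0168). Among 3 named megakaryocyte markers, Gp1bb was lower as well (difference -2.51), whereas Thbs1 was higher, and the summed linear signal of the markers was 674 to 774 in coculture and 1170 to 2551 in monoculture. Dag1, the laminin receptor dystroglycan, was 0.40 higher (SE 0.06; limma, adjusted p = 0.0184), below 1.5-fold. The median difference of the 17 receptor probes was -0.03.

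Of further matrix glycoproteins, proteoglycans and matrix enzymes, 17 of 49 listed genes were named on 20 probes, with a median difference of 0.03. They gave 2 higher calls and 1 lower, against 1.73% higher and 1.93% lower of all probes. Thbs1, a matricellular thrombospondin stored in platelets, had signals of 9.08, 8.46 and 8.53 in coculture, against 7.09, 7.82 and 7.34 in monoculture (difference 1.27, SE 0.23; limma, adjusted p = 0.0275). Srgn, the core protein of the granule proteoglycan serglycin, had 10.51, 10.63 and 10.69 in coculture, against 8.97, 9.63 and 9.82 in monoculture (difference 1.13, SE 0.21; limma, adjusted p = 0.0295). In both genes the groups did not overlap. Ltbp2, a microfibril protein, was at background in coculture at 6.52, 6.50 and 6.43, against 7.65, 7.82 and 7.73 in monoculture. The difference was -1.25 (limma, adjusted p = 0.000602), or 2.11-fold lower with the background limit standing in for coculture.

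Over the 23 matrix and protease probes above background on all arrays of a group, the median SD between arrays was 0.12 in coculture and 0.10 in monoculture, at a median signal of 6.86. Over all 18287 such probes it was 0.12 in coculture and 0.11 in monoculture, at a median signal of 7.68, so the members lay closer to background and the spreads are not compared at equal signal. Where a gene had several probes, the calls of those named by gene ID did not differ. In the plot of group means, most of the set lay at or under the background limits in both groups.

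**Figure D4:**
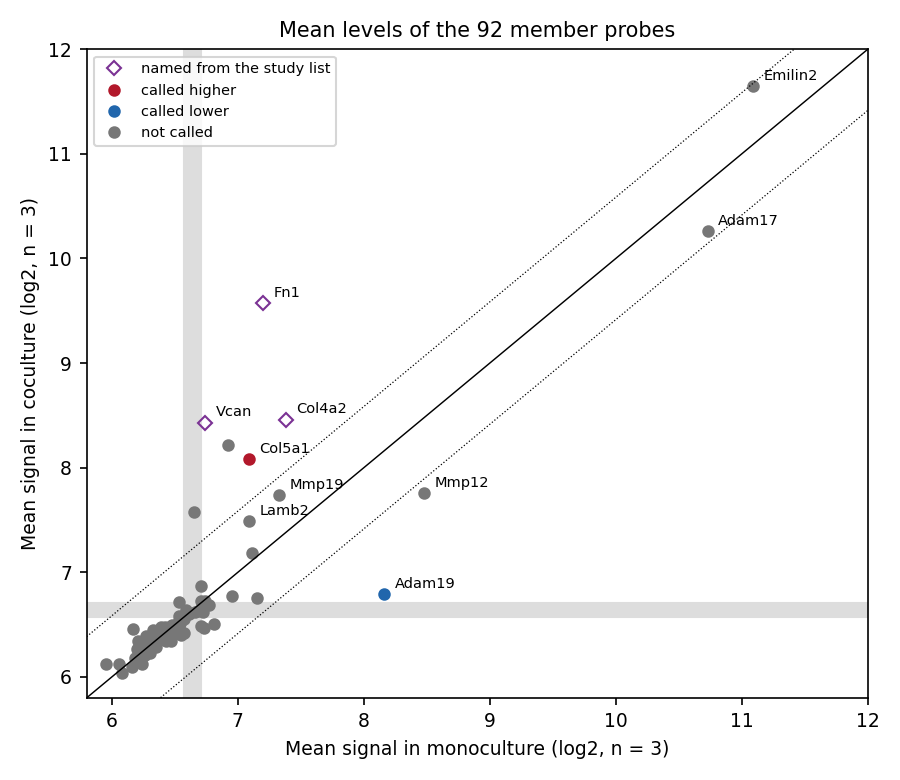
Mean signal in coculture (log2, vertical axis, n = 3) against mean signal in monoculture (log2, horizontal axis, n = 3) for the 92 probes, with grey bands for the background limits, a solid line for equal signals and dotted lines at 1.5-fold. Most points cluster near or below the bands, Col5a1 lies above the upper dotted line (8.08 in coculture, 7.09 in monoculture), and Adam19 lies below the lower one (6.79 in coculture, 8.16 in monoculture).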

How the data were processed

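The authors discarded outlying beads, took the mean over the remaining beads of a probe, applied quartile normalization between arrays and deposited the log2 signals. A background correction is not given in the sources used here. On all 6 arrays the deposited log2 values had the same distribution, between 5.81 and 14.85 with a median of 6.56. A non-normalized table was not used, since its 12 columns of values could not be matched to samples. Gene IDs inside the probe names were joined to RefSeq gene symbols, which named 9796 probes of 8102 genes.

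Differences between groups were tested by limma 3.58.1 under R 4.3.3 (lmFit and eBayes), with p-values adjusted by Benjamini and Hochberg over 46628 probes, after a test on simulated data. The choice of the background limit followed a look at the values, and some control probes were brighter, for example one for a zebrafish gene (6.89 to 7.01). Described in full were members that passed the test, the 12 with the highest mean signal, the 8 largest differences that did not pass and the 3 probes from the study's list. Other genes named by value, such as Col7a1, Lama5, Thbs2, Fbln1 and P3h1, were picked after their values were seen. Members and lists were chosen with earlier results of these data known. With 3 arrays per group, their number limits the precision. The study calls the experiments independent. If the experiments are not independent, the p-values measure a spread that may be technical.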

Additional observations from a re-analysis of the deposited data

How the results depend on the processing

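Adam19 and Col5a1 passed in all settings tried. For 16 member probes the difference was followed through these settings, and none changed sign. Other probes given by value, such as those of Lama5, Timp3 and Itga2b, were not followed. Set against 1 member probe higher and 1 lower with all arrays, the number higher was 2 with a trended prior variance, 2 with array weights and 2 with a filter on dim probes, the added probe being the third Vcan probe each time. Leaving out single arrays gave 1 to 3 higher, with 3 without coculture replicate 3, where both Vcan probes named by gene ID were added. The number lower was 1 to 1 when single arrays were left out. Without a fold threshold it was 2, through Col15a1. The number of probes above background, 29, became 12 with a limit 0.5 higher and 39 with a limit at the 95th percentile of the control probes. Over all probes, 1704 calls became 3014 without the fold threshold, 1073 without coculture replicate 1 and 1021 without monoculture replicate 1. Arrays with the same replicate number did not deviate together over all probes (r = -0.113, -0.111 and -0.101). The labels and methods state no pairing, and such correlations cannot exclude that cultures of the same number were set up together. With the replicate number as a block, the paired fit gave 1 member probe higher and 1 lower, and 1181 calls over all probes. For probes close to background, the dim signal limits how small a level can be measured.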
